A study of Mus musculus with 6 samples.

Results

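The genes examined here encode the receptors of the interferons and the JAK-STAT and IRF proteins behind them: the receptor chains *Ifngr1*, *Ifngr2* and *Ifnar1*, the kinases *Jak1* and *Jak2*, the transcription factors *Stat2*, *Irf1* and *Irf9*, and the inhibitor *Socs1*. They were picked by symbol, as every non-control probe whose gene name is one of these 9, out of 37074 named genes on the array. All 9 genes were found, on 16 probes, and each of these probes was well above background on all 6 arrays, so none was lost to the filter on dim probes. *Ifngr1*, *Ifngr2*, *Jak1* and *Socs1* have 1 probe each, and the others have several. Of all named genes, 20778 passed the filter.

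Gene expression was measured in LSK cells (Lin-, Sca1+, cKit+), the bone marrow fraction that holds haematopoietic stem cells and early progenitors, from C57BL/6 mice at postnatal days 6 to 8. The control arrays (n = 3) came from Atg5w/w;VaviCre+ mice and the Atg5f/f;Vav arrays (n = 3) from Atg5f/f;VaviCre+ mice. Atg5 is needed for autophagy, and the Vav-driven Cre, which both groups carry, acts in blood cells and also in endothelium, from fetal life on. The labels do not say whether a sample was 1 mouse or several, so SDs and p-values describe the spread between arrays. The comparison asks how transcripts of the interferon pathway differed in early stem and progenitor cells without Atg5.

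Interferon gamma binds a receptor made of Ifngr1 and Ifngr2, to which Jak1 and Jak2 are bound. GAS is the DNA element through which its signal acts on genes, and *Irf1* is among the best known of these. Interferons alpha and beta bind Ifnar1 and Ifnar2, on which Jak1 and Tyk2 activate Stat2, and Stat2 joins Irf9 in a complex that binds the ISRE element. Socs1 is induced by the same signals and inhibits the kinases. In blood stem cells, interferons are known to drive cycling, and Sca-1, the protein used in the LSK gate, is itself encoded by an interferon-inducible gene, *Ly6a*.

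The letters of GAS (TTCNNNGAA) and ISRE (TTTC, any 2 bases and TTTC again, or on the other strand GAAA, any 2 bases and GAAA again) were searched on both strands in the 250 bases before each transcription start in the RefSeq table. Of 32851 windows, 7.02% held GAS and 2.98% held ISRE. All 9 genes had a window. GAS was found in 1 of them, *Irf1*, and there in 1 of its 2 windows. ISRE was found in 2 genes, *Stat2* and *Socs1*. The shares are per window and these counts per gene. The windows of these 3 genes that hold a motif are shown because their signals were higher in the arrays labelled Atg5f/f;Vav. The first window of *Irf9* is shown because its signal was higher too without either motif in its 2 windows. Each is written 5′ to 3′ along the gene, ends at the base before the start and has the motif in capitals.
*Irf1* (GRCm38.p6, chr11:53769764-53770013, plus strand): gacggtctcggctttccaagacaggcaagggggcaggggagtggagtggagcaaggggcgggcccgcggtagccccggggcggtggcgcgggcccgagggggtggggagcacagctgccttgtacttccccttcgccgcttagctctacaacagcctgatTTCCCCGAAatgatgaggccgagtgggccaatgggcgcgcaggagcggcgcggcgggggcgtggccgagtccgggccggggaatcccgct
*Stat2* (GRCm38.p6, chr10:128270248-128270497, plus strand): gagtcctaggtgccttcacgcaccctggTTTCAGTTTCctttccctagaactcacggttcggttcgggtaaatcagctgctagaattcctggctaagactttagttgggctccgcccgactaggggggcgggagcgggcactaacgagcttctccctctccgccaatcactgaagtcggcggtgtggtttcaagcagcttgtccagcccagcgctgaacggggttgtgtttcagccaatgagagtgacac
*Socs1* (GRCm38.p6, chr16:10785537-10785786, minus strand): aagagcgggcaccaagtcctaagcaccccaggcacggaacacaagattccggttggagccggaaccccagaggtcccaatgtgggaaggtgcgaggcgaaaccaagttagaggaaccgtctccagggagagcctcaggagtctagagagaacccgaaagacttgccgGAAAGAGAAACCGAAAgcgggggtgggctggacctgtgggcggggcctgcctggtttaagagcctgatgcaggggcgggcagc
*Irf9* (GRCm38.p6, chr14:55603735-55603984, plus strand): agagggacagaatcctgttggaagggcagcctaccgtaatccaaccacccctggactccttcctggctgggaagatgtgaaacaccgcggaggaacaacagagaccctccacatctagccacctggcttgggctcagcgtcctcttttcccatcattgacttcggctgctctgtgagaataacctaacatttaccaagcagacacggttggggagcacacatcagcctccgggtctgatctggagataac
In *Irf1* the GAS letters lay from base -90 to -82 relative to the start. In *Stat2* the ISRE letters lay from -222 to -213. In *Socs1* a pair of overlapping ISRE matches, GAAAGAGAAA from -83 to -74 and GAAACCGAAA from -77 to -68, share 4 bases. Neither motif was found before *Ifngr1*, *Ifngr2*, *Ifnar1*, *Jak1* or *Jak2*. A match is only a match of letters, and a window without one says only that these letters are not in it.

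Signal is given as the log2 of a spot's intensity relative to its array's 75th percentile, and a difference is the mean of the arrays labelled Atg5f/f;Vav minus that of the control arrays. Between 57.6% and 58.1% of probes were well above background in control, and between 51.6% and 54.8% in the other group. The arrays shared 1 slide and 1 scan, and the groups sat in different rows of the slide, so an effect of the row cannot be told apart from that of genotype. The probe of *Atg5* itself read 1.10, 0.93 and 1.06 in control and 1.46, 1.51 and 1.74 in the arrays labelled Atg5f/f;Vav, higher by 0.54 in the group whose label says it was deleted (adjusted p = 0.0209 from limma, and 0.0727 or 0.0836 without control replicate 1 or 2). Whether that probe, which starts at base 2251 of the transcript, lies in the deleted stretch was not determined, so it does not check the labels and each direction here rests on them. Control replicate 1 stood apart from the other control arrays in stromal genes, with *Col1a1* at -4.14 against 3.23 and 2.95. In the arrays labelled Atg5f/f;Vav *Col1a1* read -5.23, -5.16 and -5.49, nearer to control replicate 1 than to the other controls. Values without control replicate 1 are given beside the results, as the control arrays were not alike in these genes.

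Of the 9 genes, 4 passed limma's test, with Benjamini-Hochberg adjustment over all 32074 probes tested, and all 4 were higher in the arrays labelled Atg5f/f;Vav: *Irf1*, *Socs1*, *Stat2* and *Irf9*. Over all genes tested, 34.1% passed in either direction, 18.7% as higher and 15.3% as lower. The receptor chains *Ifngr1* and *Ifngr2*, the kinases *Jak1* and *Jak2*, and *Ifnar1* on the probe that represents it did not pass. The groups did not overlap in 5 of the 9 genes as higher and in 1 as lower, where 55.9% of all genes tested had no overlap, 29.6% as higher and 26.3% as lower. For 1 gene taken alone, the 2-sided exact permutation test cannot go below p = 0.1 with 3 arrays against 3. The rise of *Irf1* lay at percentile 98.8 of the differences over all genes tested, that of *Socs1* at 98.4, *Stat2* at 95.4 and *Irf9* at 92.7. The RNA is that of a whole sorted population, in which fewer cells of a type and less RNA per cell cannot be told apart.

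**Figure D1:**
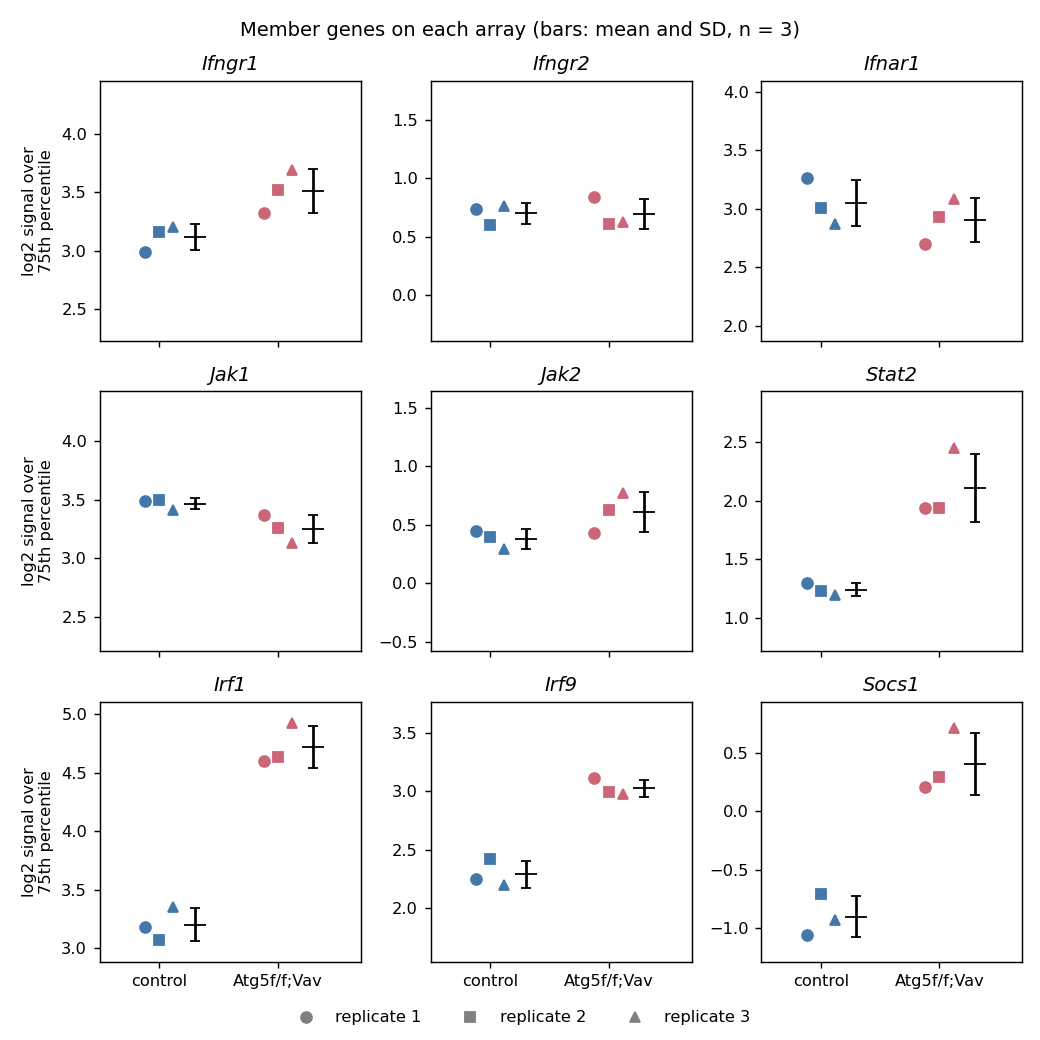
Log2 signal relative to the array's 75th percentile for the probe representing each of the 9 genes, with 1 point per array (3 control, 3 Atg5f/f;Vav), the symbol giving the replicate number and the bars the mean and SD. Each panel spans the same range on its y axis. *Stat2*, *Irf1*, *Irf9* and *Socs1* show a clear gap between the groups, whereas those of *Ifngr2*, *Ifnar1* and *Jak2* overlap.

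*Ifngr1* encodes the chain of the interferon gamma receptor that binds the cytokine. Its probe, at 19329923 to 19329982 on chromosome 10 of mm9, read 2.99, 3.16 and 3.20 in control and 3.32, 3.52 and 3.69 in the arrays labelled Atg5f/f;Vav. Every array of the latter group was above every control array, but by little, since the lowest of them exceeded the highest control array by only 0.11. The difference was 0.39 (standard error, SE, 0.13, 95% interval 0.07 to 0.71, adjusted p = 0.0625 from limma) and did not pass. It passed under normexp background correction (0.38, adjusted p = 0.031 from limma) and without Atg5f/f;Vav replicate 1 (0.48, adjusted p = 0.0411 from limma), and quantile normalisation lowered it to 0.10. *Ifngr2* encodes the chain that brings Jak2 to the receptor. Its probe, on chromosome 16 from 91563982 to 91564041, read 0.74, 0.60 and 0.76 in control and 0.84, 0.61 and 0.63 in the others. The groups overlapped fully. The difference was -0.01 (SE 0.12), and the 95% interval of -0.28 to 0.27 bounds how large a change could have gone unseen.

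*Ifnar1* encodes a chain of the receptor shared by interferons alpha and beta, and 4 probes measured it. The probe of highest signal, on chromosome 16 from 91508662 to 91508721 and starting at base 4907 of the transcript, read 3.26, 3.01 and 2.87 in control and 2.70, 2.93 and 3.08 in the arrays labelled Atg5f/f;Vav. The groups overlapped, with a difference of -0.14 (SE 0.15, 95% interval -0.51 to 0.22, adjusted p = 0.481 from limma). The other 3 probes gave larger differences in the same direction. The probe at base 1536, whose placement from 91503764 to 91505350 crosses a splice junction, read -2.23, -2.36 and -2.47 in control and -2.74, -2.72 and -2.84 in the others. Here no array of one group reached the other, and the probe fell by 0.41 (SE 0.11, adjusted p = 0.0319 from limma). A probe on a separate transcript model, from 91491902 to 91491961, fell by 0.43 (SE 0.12, adjusted p = 0.0357 from limma), again without overlap. The fourth, at base 3284, gave -0.34 (adjusted p = 0.119 from limma), and the mean of the 4 probes gave -0.33 (adjusted p = 0.0435 from limma). The lower signal of *Ifnar1* thus passed on 2 of its 4 probes and on their mean, and not on the brightest. Each of these 2 probes passed with only 1 of the arrays left out, control replicate 3 for the probe at base 1536 (-0.47) and Atg5f/f;Vav replicate 2 for the other (-0.52), and differences with any array left out lay between -0.52 and -0.35.

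*Jak1* encodes the kinase that both kinds of interferon receptor use. Its probe, on chromosome 4 from 100825094 to 100825153, read 3.49, 3.50 and 3.41 in control and 3.37, 3.26 and 3.13 in the arrays labelled Atg5f/f;Vav. Every array of the latter group was below every control array. The difference of -0.22 (SE 0.11, 95% interval -0.48 to 0.05, adjusted p = 0.163 from limma) did not pass, and it passed as lower under quantile normalisation (-0.51, adjusted p = 0.0336 from limma) and with the 75th percentile taken over probes detected on all arrays (-0.37, adjusted p = 0.0449 from limma). The latter scaling moved the median difference over all genes from -0.03 to -0.19. *Jak2* encodes the kinase bound to Ifngr2, and is also used by many cytokine receptors of blood cells. Its brighter probe, on chromosome 19 from 29386381 to 29386440, read 0.45, 0.40 and 0.29 in control and 0.43, 0.63 and 0.77 in the others. The groups overlapped, with a difference of 0.23 (SE 0.13, adjusted p = 0.184 from limma). Its other probe gave -0.16 (SE 0.19, adjusted p = 0.523 from limma), and 0.05 without Atg5f/f;Vav replicate 1, so neither probe of *Jak2* passed and they did not share a direction.

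*Stat2* encodes the STAT that is specific to the interferon alpha and beta pathway. Its brighter probe, on chromosome 10 from 127729834 to 127729893, read 1.30, 1.23 and 1.20 in control and 1.94, 1.94 and 2.45 in the arrays labelled Atg5f/f;Vav. All arrays of the latter group were higher, and replicate 3 stood above its fellows. The difference was 0.87 (SE 0.16, 95% interval 0.48 to 1.26, adjusted p = 0.0166 from limma), a 1.82-fold rise. The second probe, at base 1362 and across a splice junction, was dim and read -3.48, -3.49 and -3.59 in control and -3.67, -3.37 and -2.83 in the others. There the groups overlapped (0.23, SE 0.21, adjusted p = 0.415 from limma), and without Atg5f/f;Vav replicate 3 the second probe's difference was 0.00. Averaged over both probes the difference was 0.55 and no longer passed (adjusted p = 0.0586 from limma), so the rise of *Stat2* rests on 1 of its 2 probes.

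*Irf1* encodes the founding member of the IRF family, an activator of antiviral and antigen presentation genes. It showed the largest difference of the 9 genes. The brighter probe, on chromosome 11 from 53590746 to 53590805, read 3.18, 3.07 and 3.35 in control and 4.60, 4.63 and 4.92 in the arrays labelled Atg5f/f;Vav. The lowest array of the latter group was 1.25 above the highest control array. The difference was 1.51 (SE 0.14, 95% interval 1.19 to 1.84, adjusted p = 0.00547 from limma), a 2.86-fold rise. A second probe at base 651, across a splice junction, read -2.21, -2.74 and -2.31 in control and -1.0, -0.90 and -0.76 in the others. It too was without overlap and gave nearly the same difference, 1.54 (SE 0.17, adjusted p = 0.00805 from limma).

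*Irf9* encodes the DNA-binding partner of Stat2. Its brighter probe, on chromosome 14 from 56228806 to 56228865, read 2.25, 2.42 and 2.20 in control and 3.11, 2.99 and 2.98 in the arrays labelled Atg5f/f;Vav. The difference was 0.74 (SE 0.11, 95% interval 0.47 to 1.0, adjusted p = 0.0145 from limma), a 1.66-fold rise, and the groups did not overlap. The other probe, from 56228256 to 56228315, read 0.49, 0.71 and 0.59 against 1.46, 1.43 and 1.47. It rose by 0.86 (SE 0.11, adjusted p = 0.011 from limma), again without overlap. *Irf9* was the gene with the closest agreement between arrays labelled Atg5f/f;Vav among the 4 that passed, with an SD of 0.08 on the brighter probe against 0.18 for *Irf1*, 0.27 for *Socs1* and 0.30 for *Stat2*.

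*Socs1* encodes the inhibitor that binds the activated JAKs. Its 1 probe, on chromosome 16 from 10783951 to 10784010, read -1.06, -0.71 and -0.93 in control and 0.21, 0.29 and 0.71 in the arrays labelled Atg5f/f;Vav. The groups were 0.92 apart at their nearest arrays. The difference was 1.31 (SE 0.17, 95% interval 0.90 to 1.71, adjusted p = 0.0114 from limma), a 2.47-fold rise.

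**Figure D2:**
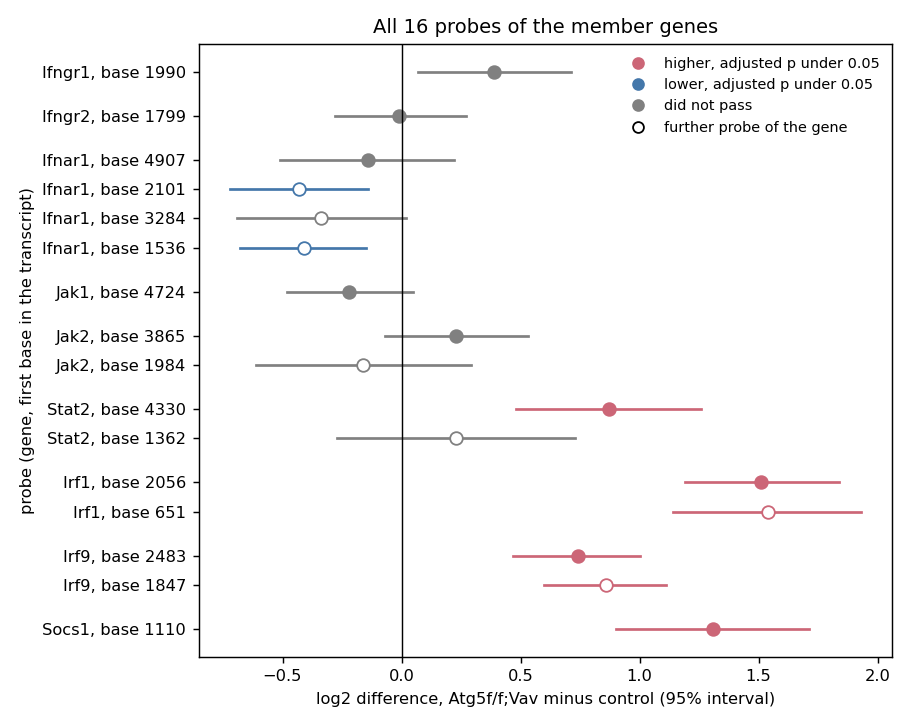
Difference in log2 signal, Atg5f/f;Vav minus control, for all 16 probes of the 9 genes, with 95% intervals from limma. Filled points are the probes that represent a gene, open points further probes, and colour shows whether the adjusted p was under 0.05. Both probes of *Irf1* and both of *Irf9* lie wholly above 0, 2 of the 4 of *Ifnar1* wholly below it, and the probes of *Jak2* on either side of it.

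Counted by probe, 6 of the 16 were higher and 2 lower, where 34.4% of all probes tested passed, 17.3% as higher and 17.1% as lower. The 6 higher probes were those of *Irf1* (2), *Irf9* (2), *Socs1* and *Stat2*, and the 2 lower ones were both of *Ifnar1*. Which genes passed depended on the control arrays. Without control replicate 1, *Irf1* alone of the 9 passed (1.51), and the adjusted p from limma was 0.0558 for *Socs1* (1.23), 0.066 for *Irf9* (0.71) and 0.0673 for *Stat2* (0.90). The genes that had not passed then gave 0.32 for *Ifngr1*, 0.01 for *Ifngr2*, -0.04 for *Ifnar1*, -0.20 for *Jak1* and 0.27 for *Jak2*. Without control replicate 2, *Irf1* and *Socs1* passed, and the adjusted p was 0.0599 for *Irf9* and 0.0712 for *Stat2*. *Irf1* passed with each array left out in turn (adjusted p 0.00605 to 0.0379 from limma), as did its second probe. The second probe of *Irf9* passed without control replicate 2 (adjusted p = 0.0482 from limma) and not without control replicate 1 (adjusted p = 0.0592 from limma). The sizes moved less than the p-values. Over these settings the difference ranged from 1.41 to 1.59 for *Irf1*, 1.15 to 1.40 for *Socs1*, 0.70 to 0.95 for *Stat2* and 0.69 to 0.80 for *Irf9*. Over all probes tested, 330 passed without control replicate 1 and 251 without control replicate 2, against 11024 with all arrays.

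**Figure D3:**
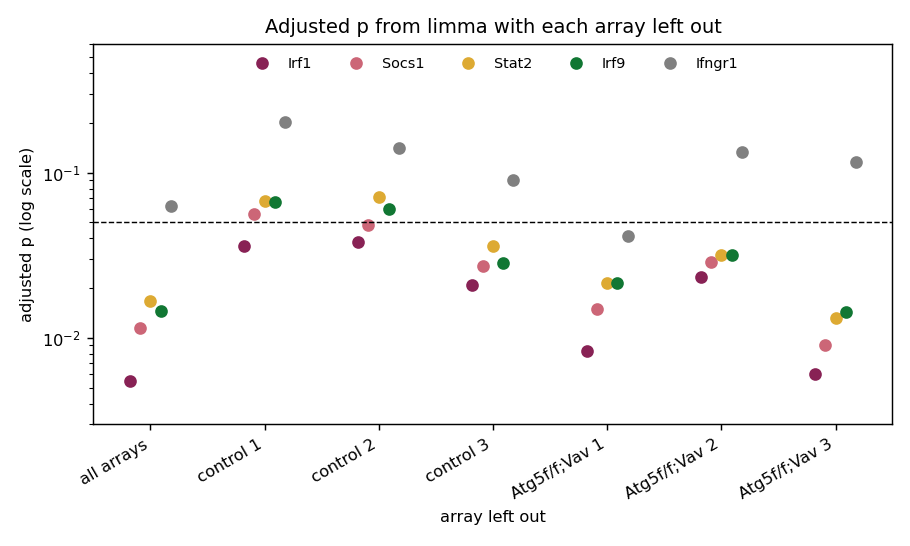
Adjusted p from limma, on a log scale, for *Irf1*, *Socs1*, *Stat2*, *Irf9* and *Ifngr1* with all arrays and after omitting any 1 of them. The dashed line marks 0.05. *Irf1* stays under the line throughout, *Socs1* is over it without control replicate 1, and *Stat2* and *Irf9* are over it without control replicate 1 or 2.

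A list of 47 further genes of the pathway was examined in the same way, of which 45 had a probe and 37 passed the filter. Of these 37, 5 were higher (13.5%) and 4 lower (10.8%), smaller shares than the 18.7% and 15.3% over all genes tested. Their median difference was 0.05, where that of all genes tested was -0.03. Without control replicate 1 or 2 the count was 2 in either case, *Irf7* and *Usp18*. Transcripts of the interferons themselves were low: *Ifng*, *Ifnb1*, *Ifna4*, *Ifna12*, *Ifne* and *Ifnk* were well above background on no array, and *Ifna2* on 1. *Ifnab* was the only interferon transcript to pass, as lower by 0.50 (adjusted p = 0.0224 from limma). Its second probe gave -0.08 with overlap (adjusted p = 0.87 from limma), and without any 1 of the control arrays no interferon transcript passed. Probes of the interferon alpha cluster may share transcripts among closely related genes. Transcripts made by other cells of the marrow were not measured here.

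*Ifnar2*, the partner chain of *Ifnar1*, read 2.06, 2.09 and 2.09 in control and 2.27, 2.18 and 1.95 in the arrays labelled Atg5f/f;Vav. The groups overlapped (0.05, 95% interval -0.24 to 0.33), as they did on its second probe (-0.11). *Tyk2*, the kinase that binds Ifnar1, read -1.64, -1.71 and -1.12 against -0.62, -0.99 and -1.04. The groups were apart by 0.08 at their nearest arrays, and the difference of 0.60 (SE 0.20, adjusted p = 0.0535 from limma) did not pass. It passed in 5 alternative settings and not in the other 12. The 5 were normexp background correction (0.50, adjusted p = 0.0298 from limma), the deposited values (0.63, adjusted p = 0.0484 from limma), omission of control replicate 3 (0.79, adjusted p = 0.0316 from limma), detection required on all 6 arrays (adjusted p = 0.0397 from limma) and an intensity trend (adjusted p = 0.036 from limma).

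*Stat3*, which carries signals of interleukin 6 and G-CSF, read 3.63, 3.71 and 3.54 in control and 3.68, 3.82 and 3.64 in the arrays labelled Atg5f/f;Vav. The groups overlapped (0.08, 95% interval -0.18 to 0.35). None of the 5 further STAT genes listed, *Stat3* among them, passed on the probe that represents it, and their differences lay between -0.53 and 0.26. A further probe of *Stat5a* passed as higher without overlap (0.37, adjusted p = 0.0438 from limma), where the representing probe gave 0.06.

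Of the 6 further IRF genes listed, *Irf7* and *Irf8* rose and *Irf2* fell. *Irf7*, the amplifier of the interferon alpha response, read 2.88, 3.11 and 3.0 against 4.90, 4.97 and 5.63, a rise of 2.17 (adjusted p = 0.00606 from limma). *Irf8*, which directs monocyte and dendritic cell development, read 0.70, 1.48 and 1.94 against 2.88, 2.64 and 3.05, a rise of 1.49 (adjusted p = 0.0179 from limma). Its control arrays were widely spread. The second probes of *Irf7* (2.63) and *Irf8* (0.87) passed as well. *Irf2*, an antagonist of Irf1 that binds the same sites, read 0.92, 0.75 and 0.71 against 0.50, 0.30 and 0.09, without overlap, and fell by 0.50 (adjusted p = 0.0357 from limma). Its second probe fell by 1.22 (adjusted p = 0.0327 from limma), again without overlap, and the mean of both by 0.86. Without control replicate 1 or 2 the rise of *Irf8* did not pass (1.15 and 1.54), nor did the fall of *Irf2* (-0.43 and -0.52). *Irf2* also failed to pass without control replicate 3 or Atg5f/f;Vav replicate 2, or without Atg5f/f;Vav replicate 3 (-0.39). Within each array, the *Irf1* signal relative to that of *Irf2* was 2.01 higher in the arrays labelled Atg5f/f;Vav.

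Of the 16 other inhibitors, 3 were higher (18.8%) and 2 lower (12.5%), shares near those over all genes tested. *Usp18*, which blocks signalling at Ifnar2, read -2.08, -1.47 and -1.66 in control and 0.74, 0.58 and 1.60 in the others, a rise of 2.71 (adjusted p = 0.00805 from limma). *Socs3*, which inhibits signalling of interleukin 6 and G-CSF, rose by 0.80 (adjusted p = 0.0281 from limma). The third was *Ptpn11*, a phosphatase gene that the naming rule did not choose and that was added after its value was seen (0.37, adjusted p = 0.0378 from limma, and 0.05 after quantile normalisation). *Socs5* and *Socs2*, the latter an inhibitor of growth hormone signalling, fell by 1.09 (adjusted p = 0.0217 from limma) and 1.06 (adjusted p = 0.0388 from limma). Of the 3 other probes of *Socs2*, 2 passed (-1.99 and -1.57) and 1 did not (-0.91). The second probe of *Ptpn11* did not pass (0.27). Members of the SOCS family thus moved in both directions. *Usp18* passed whichever array was left out. Without control replicate 1 or 2, *Socs3* (0.72 and 0.69), *Socs5* (-1.02 and -1.01), *Socs2* (-1.09 and -0.95) and *Ptpn11* (0.36 in both) did not pass. Neither did *Socs3* without Atg5f/f;Vav replicate 2 or 3, *Socs2* without control replicate 3 or Atg5f/f;Vav replicate 1, or *Ptpn11* without any of the other arrays.

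The same difference of differences was computed for 3 pairs, each with a 2-sided exact permutation test. For *Ifngr1* relative to *Ifngr2* it was 0.39 (exact p = 0.2) and for *Jak2* relative to *Jak1* 0.45 (exact p = 0.1). It was at an exact p = 0.1, the smallest the design allows, for *Irf1* relative to *Irf2* as well. That p was fixed beforehand, since each of these 2 genes had already separated the groups, in opposite directions. After Benjamini-Hochberg adjustment over the 3 exact permutation tests the p-values became 0.15 for the 2 pairs at the smallest p and 0.2 for the receptor chains.

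Genes downstream of the pathway were listed by what is known of them. Of 10 genes known as preferred targets of interferon gamma, 9 were higher, with a median difference of 2.60. Over all genes tested, 18.7% were higher and the median difference was -0.03. The list was led by *Iigp1*, a GTPase that attacks the vacuoles of intracellular microbes (4.76), and *Cxcl10*, a chemokine (4.42). *Cd274* was the 1 that did not pass (0.35, adjusted p = 0.0769 from limma). *Cxcl9*, which counts among the 9, was well above background on no control array and so passed the filter only through the group in which it was higher. Without it 8 of 9 were higher, with a median of 2.23. All 13 genes known as targets of the Stat2-Irf9 complex were higher, with a median of 1.73, led by *Isg15*, a ubiquitin-like protein (2.94), and *Usp18*. With *Cxcl9* kept, the counts without control replicate 1 were 8 and 6, and without control replicate 2 they were 7 and 9, with medians of 2.65 and 1.66, and 2.55 and 1.85. These lists were drawn up with the rise of interferon-induced genes in these arrays already known, so their counts are no independent evidence. The medians of the 2 lists were not tested against each other, and the lists were not used to tell kinds of interferon apart. *Irf7* and *Usp18* stand in the second list as well as in the lists by role.

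**Figure D4:**
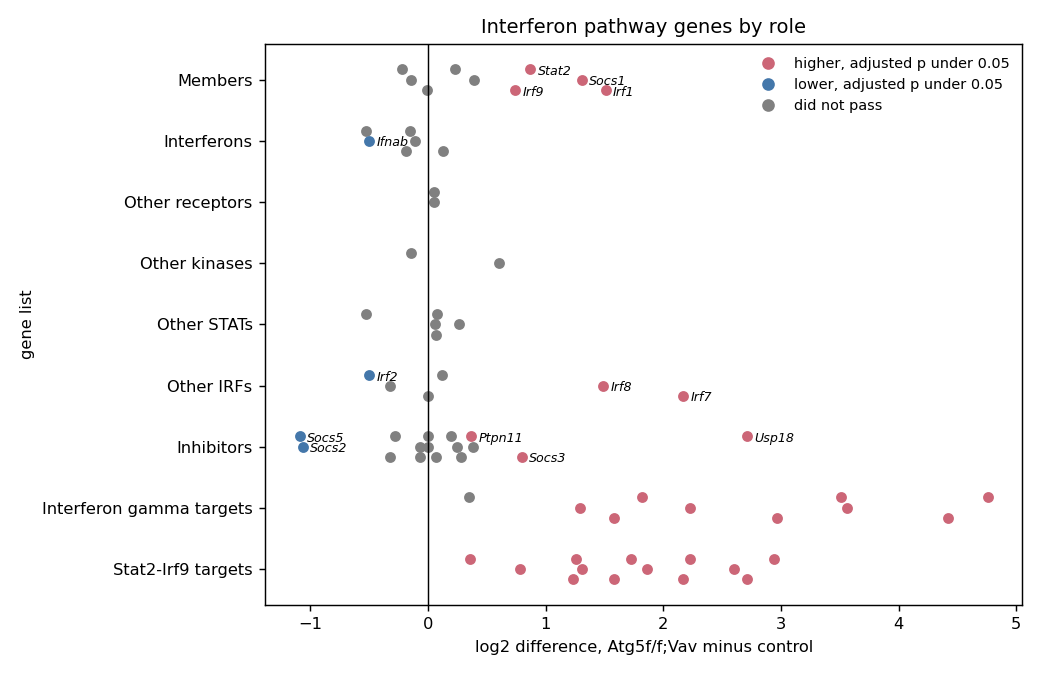
Difference in log2 signal, Atg5f/f;Vav minus control, of each gene tested, by role in the interferon pathway, with 1 point per gene on the probe that represents it. Names are given for genes of the upper 7 rows with an adjusted p under 0.05. Interferons lie between -0.53 and 0.13, and the other receptors at 0.05. *Irf7* and *Usp18* lie above 2, and the lists of target genes lie to the right of 0.

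Of 38 further pathway genes with a window, 10 held GAS and 10 held ISRE, and 15 held either, many of them interferon genes. Over all windows 9.66% held either, a share per window where these counts are per gene. GAS stood before *Irf8* (at -171 and -153, in 1 of its 2 windows) and *Socs3* (at -154), which rose, before *Irf2* (at -224, with ISRE at -241), which fell, and before *Ifnar2* (at -214), which overlapped. ISRE stood before *Stat4* (at -97, in 1 of its 2 windows), which did not pass. Neither motif was found before *Irf7*, which rose.

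For each of the 9 genes, the nearest profile among 18272 other genes detected on all 6 arrays was found by the root-mean-square distance over the 6 arrays, after centring each gene on its own mean. For *Socs1* it was *Htatip2* (distance 0.0875, difference 1.26), and no second gene lay within 0.1. For *Irf9* it was *Fam32a* (0.0813), with 4 genes within 0.1. For *Irf1* it was a transcript listed as ENSMUST00000173809 (0.0325), with 23 genes within 0.1, and for *Stat2* it was *Tex40* (0.0386), with 94. The 5 genes that did not pass had many others near them: *Slc22a13* was nearest to *Ifnar1*, *Gm35144* to *Ifngr2*, *D3Ertd254e* to *Jak1*, *Dffa* to *Jak2* and *Usp16* to *Ifngr1*, with 307 to 1111 genes within 0.1. Profiles over 6 arrays of 2 groups mostly reflect the group difference, and the distances are descriptions.

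Markers of the gate and of other cells moved alongside these genes. *Ly6a* read 1.56, 1.31 and 1.53 in control and 2.89, 2.91 and 3.30 in the arrays labelled Atg5f/f;Vav, a rise of 1.57 (adjusted p = 0.00623 from limma). *Kit*, the other gene of the gate, gave -0.38 (adjusted p = 0.0563 from limma), and its other probes passed as lower (-0.67 and -0.62). Among the 8 LSK markers, *Ly6a* was higher, *Mecom* (-1.75) and *Hlf* (-1.65) were lower and 5 did not pass. *Flt3* was among these 5 (-0.87), though its second probe passed as lower without overlap (-0.85, adjusted p = 0.0138 from limma). The summed signal of the 8 markers, in multiples of the array's 75th percentile, was 146 to 156 on the control arrays and 94.8 to 156 on the others.

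For other cell types, 7 of 10 T and NK cell markers were tested and 1 was higher (14.3%). Over all genes tested, 18.7% were higher and 15.3% lower. The summed signal of the 10 was 7.38 to 11.0 on the control arrays and 10.9 to 11.9 on the others. *Cd3g*, *Cd8a* and *Ncr1* were well above background on no array. The higher T and NK cell marker, *Gzmb* (5.21), was not well above background on any control array and was on all 3 others. It thus passed the filter only through the group in which it was higher, and no other marker of this list passed as higher. Of 10 macrophage and monocyte markers 7 were tested and 2 were higher (28.6%), *Ly6c2* (0.56) and *Ccr2* (0.97). The sum was 20.1 to 23.1 against 29.1 to 32.9. Of 7 dendritic cell markers 6 were tested and 1 was higher (16.7%), *Bst2*, which is also an interferon target. The sum was 166 to 198 against 160 to 178. Of 8 B cell markers, all tested, 1 was higher (12.5%), with a sum of 9.26 to 12.4 against 10.7 to 17.9. Neutrophil markers had 7 of 8 lower and 1 higher (78.2 to 163 against 37.8 to 67.2). Erythroid markers had 4 of 8 lower and 2 higher (223 to 506 against 73.3 to 100). The 4 lower were *Hba-a1* (-2.26), *Hbb-b1* (-1.92), *Alas2* (-2.07) and *Slc4a1* (-2.29), and the 2 higher were *Klf1* (2.95) and *Epor* (2.08). *Ermap* did not pass on the probe that represents it (-0.11), but its second probe passed as higher without overlap (2.85, adjusted p = 0.0187 from limma). Of 8 stromal markers 6 were tested and 3 were lower, with a sum of 3.45 to 32.4 against 2.32 to 3.02. *Col1a1* (-5.98), among these 3, was well above background on all 3 control arrays and on none of the others. It thus passed the filter only through the control group, in which it was higher. Each sum is of linear signal, so it follows the brightest genes of its list. The erythroid sum mostly reflects *Hba-a1* (mean log2 signal 8.49 in control), the dendritic sum *Siglech* (7.26) and the macrophage sum *Ly6c2* (3.99). Without control replicate 1 none of the macrophage, dendritic, B cell, neutrophil or erythroid markers passed, and without control replicate 2 only 1 neutrophil marker did, as lower. *Mecom* and *Hlf* passed in neither case, whereas *Ly6a* did in both. The 3 stromal markers passed without control replicate 1 and none did without control replicate 2. The part of these shifts in the differences of *Irf1*, *Irf9*, *Stat2* and *Socs1* was not tested.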

How the data were processed

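RNA of sorted LSK cells was hybridised to 1-colour Agilent microarrays, 3 arrays per group. The authors deposited scanner files whose intensity had been corrected for background and spatial trend in Agilent Feature Extraction 12.0.3.1, per the file headers, and a table of linear normalised signal, which differs from the intensity by 1 factor per array (the ratio varied by at most 0.000267% within an array). Probe positions refer to mm9. For each scanner file, the log2 of the 75th percentile over 59305 non-control spots was subtracted from log2 intensity, after removal of 64 to 81 spots per array called outliers by the software, and replicate spots of a probe were averaged. Probes had to be well above background on 3 or more of the 6 arrays, which left 32074. These were compared 2-sided in limma 3.58.1 (lmFit, eBayes; R 4.3.3), and p-values were adjusted over all of them by Benjamini-Hochberg, with a threshold of 0.05. A gene was represented by its tested probe of highest mean signal. Exact permutation tests used scipy 1.17.1.

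Arrays give no counts, so their number limits the precision, and the labels do not say whether a sample was 1 mouse or several. Groups follow the sample labels. The 9 genes and all lists were chosen with earlier results of these data known. Beside the 9 genes, those named are *Ifnar2*, *Tyk2*, *Stat3*, *Irf2*, *Irf7*, *Irf8* and *Usp18*, at most 2 genes each way per list with the largest changes among those that passed without overlap, and for each of the 9 genes the gene outside the lists with the nearest profile among those detected on all 6 arrays. Some genes of the pathway are not reported here. Others are named only where a count or a marker list calls for it. Upstream windows came from a RefSeq table on GRCm38.p6, and no position was moved between builds. Alternatives were the deposited values, quantile normalisation, normexp background correction (offset 50), scaling on the 75th percentile of those probes detected throughout, dim probes kept, detection required on all 6 arrays, the methods' t-test, an intensity trend in eBayes, outlier spots kept, a replicate block, omission of each array, and averaging a gene's probes. The steps were tested on simulated data.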

Additional observations from a re-analysis of the deposited data

How the results depend on the processing

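Under the 17 alternatives run, *Irf1*, *Socs1*, *Stat2* and *Irf9* kept their direction, as did *Ifngr1*, *Ifnar1*, *Jak1* and *Jak2* on the probes that represent them. That of *Ifngr2*, near 0, turned to 0.02 in the deposited values and to 0.01, 0.02, 0.03 and 0.03 without control replicate 1, control replicate 3, Atg5f/f;Vav replicate 2 and Atg5f/f;Vav replicate 3. By the methods' t-test after Benjamini-Hochberg adjustment, 0 of the 9 genes, 0 of 37 further pathway genes and 0 probes passed, where 6, 12 and 13541 had an unadjusted p under 0.05 and limma called 4, 9 and 11024. The adjusted p of that test was 0.0517 for *Irf1* (1.51), 0.0534 for *Irf9* (0.74) and *Socs1* (1.31) and 0.0566 for *Stat2* (0.87). Without a filter on dim probes limma called 4 of the 9 genes, 3 further pathway genes and 4538 probes. *Ifngr1* passed as higher under normexp background correction (0.38) and an intensity trend (0.39). *Jak1* passed as lower after quantile normalisation (-0.51) and with scaling on the 75th percentile of probes detected throughout (-0.37). With a gene's probes averaged, *Ifnar1* passed as lower (-0.33) and *Stat2* did not pass (0.55). For these shifts the cause was not tested. The percentile over detected probes lowers all differences alike, and with it 30.8% of the probes that passed were higher, against 50.3%.

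With each array left out, the differences ranged from 0.30 to 0.48 for *Ifngr1*, -0.08 to 0.03 for *Ifngr2*, -0.23 to -0.04 for *Ifnar1*, -0.27 to -0.16 for *Jak1*, 0.15 to 0.32 for *Jak2*, 0.70 to 0.95 for *Stat2*, 0.69 to 0.80 for *Irf9* and 1.15 to 1.40 for *Socs1*. Between 1 and 5 of the 9 genes, 2 and 8 further pathway genes, and 251 and 10304 probes passed. Same-numbered arrays of the groups deviated together with r of -0.065, 0.189 and 0.111 across probes, so the numbers were not taken to pair the arrays. With the replicate block *Ifngr1* passed (0.39, adjusted p = 0.0485 from limma), 5 of the 9 genes and 10173 probes passed, and not every array correlated best with its own number. No block for slide or scan could be fitted with 1 slide and 1 scan. Signal over background did not limit the 9 genes, whose probes were detected on all arrays, but only 6 of the 13 interferon genes with a probe could be tested.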
